A study of Homo sapiens with 12 samples.

Results

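Transcripts of 10 genes that build the contacts between neighbouring epithelial cells were measured in breast cancer cells carrying wild-type or mutant Dicer. They are the cadherins CDH1, CDH2, CDH3 and CDH11, the claudins CLDN1, CLDN4 and CLDN7, occludin (OCLN), junctional adhesion molecule A (F11R) and the scaffold protein zonula occludens 1 (TJP1). They were chosen by symbol, not by level, and each of the 10 symbols matched 1 of the 64252 gene IDs in the count files. Of these genes, 8 passed the filter on low counts and were tested, and CDH2 and OCLN did not pass it.

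Cadherins are membrane proteins that bind cadherins on the next cell and hold the adherens junction together, with catenins linking their tails to actin. Claudins, occludin and junctional adhesion molecules form the tight junction above it, which seals the space between cells, and zonula occludens proteins tie them to the cytoskeleton. In breast epithelium E-cadherin (CDH1) is the main cadherin, and its loss, with gain of N-cadherin (CDH2), is a classical mark of the epithelial to mesenchymal transition.

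The cells were MDA-MB-231, an established human triple-negative breast cancer line known for a mesenchymal-like form and little E-cadherin. Every group was transfected with a Dicer plasmid, so that all 4 groups share the transfection and added Dicer, the enzyme that cuts microRNA precursors. The groups were Dicer with mutation 1, Dicer with mutation 2, Dicer with mutation 3 and wild-type Dicer, each with 3 libraries of poly(A)-selected RNA. The labels number the mutations without naming them, and cells with an empty plasmid or with none were not analysed here. Nothing in the labels tells whether separate cultures were used, and the p-values reflect the scatter among these libraries, which could be purely technical. Numbers of mutant libraries follow accession order and are only names.

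Library totals ran between 13507341 and 17078273 counts. All 8 markers of the line, among them VIM, CD44 and EGFR, were above 1 CPM (counts scaled to library size) in every group. Among markers of other cells, DCN and CD3E had 0 counts in all 12 libraries. The 8 fibroblast markers summed to between 110 and 121 CPM with mutation 1, with 6 of 8 detected, and to between 23.4 and 39.6 CPM in wild type, also with 6 of 8 detected. Here detected means any count in the group. With mutation 1 and in wild type only COL1A1 and PDGFRB averaged above 1 CPM. They had 34.3 and 79.4 CPM with mutation 1 and 17.8 and 9.1 CPM in wild type. With mutations 2 and 3 the fibroblast sums were 20.8 to 29.1 and 40.9 to 45.6 CPM, and COL3A1 also averaged above 1 CPM with mutation 2, at 2.52. The 6 endothelial markers summed to between 3.22 and 5.76 CPM over the mutant libraries, with 4 to 6 detected in each group, and to between 5.64 and 24 CPM in wild type, with all 6 detected. Only PECAM1 and KDR averaged above 1 CPM in wild type, at 11.7 and 3.77 CPM, and only KDR did so in the mutant groups. The 6 leukocyte markers summed to between 22.4 and 27.2 CPM with mutation 1, with 4 of 6 detected, and to between 4.27 and 20.6 CPM in wild type, also with 4 of 6 detected. With mutations 2 and 3 the leukocyte sums were 6.12 to 9.86 and 6.22 to 7.64 CPM. Only CD14 averaged above 1 CPM in any group, at 25 CPM with mutation 1 and 9.18 CPM in wild type. The 9 luminal breast markers summed to between 31.5 and 47.1 CPM over the mutant libraries and to between 68.4 and 84.8 CPM in wild type, with XBP1 listed at 0 in all 12. That sum was carried by SPDEF, at a mean of 0.435 CPM with mutation 1, 0.0469 with mutation 2 and 0.27 with mutation 3, against 53.5 CPM in wild type, while GATA3 and ERBB3 averaged 28.3 and 15.8 CPM with mutation 1, against 14 and 6.52 CPM in wild type. The part of these markers in the results was not tested.

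Wild-type library 1 stood apart from the other wild-type libraries. Between it and wild-type libraries 2 and 3, 3326 and 3374 genes differed by more than 2-fold, against 243 genes between libraries 2 and 3 and between 269 and 373 within each mutant group. Its rank correlation across genes was 0.973 to 0.974 with the mutation 2 libraries and 0.945 with the other wild-type libraries. Results against wild type use all 3 wild-type libraries, and are also given without library 1 (the mutants against libraries 2 and 3) and against library 1 alone. For genes other than the 10, those values are given for some comparisons only. A value printed without them may still depend on library 1. Values against library 1 alone take its spread from the mutant groups.

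Levels are CPM after TMM scaling, and differences are log2 fold changes with an approximate standard error (SE). Each adjusted p is from edgeR's quasi-likelihood test with Benjamini-Hochberg adjustment over all 15094 genes tested, with a threshold of 0.05. The 3 comparisons with wild type share the same 3 wild-type libraries. In bulk RNA, fewer cells expressing a gene and less RNA per cell cannot be told apart.

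To compare levels between genes, CPM were divided by the length of the merged exons. On this scale CLDN4 was the most abundant of the 10 in every group, at 91.1 CPM per kilobase with mutation 1, 49.9 with mutation 2, 74.5 with mutation 3 and 30.3 in wild type. CDH11 had the second level in mutation 2 and wild type, at 8.72 and 17.7 CPM per kilobase, and CLDN7 had it in mutations 1 and 3, at 20.1 and 15.4. CDH1 had 1.79 CPM per kilobase with mutation 1, 0.130 with mutation 2, 0.0974 with mutation 3 and 0.877 in wild type. CDH2 lay between 0.0715 and 0.131 CPM per kilobase and OCLN between 0.0125 and 0.0368 over the 4 groups. CLDN4, CDH11, CLDN7 and F11R were the 4 most abundant of the 10 in every group, and TJP1, CDH3, CDH2 and OCLN did not exceed the 0.311 CPM per kilobase of TJP1 with mutation 2.

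**Figure D1:**
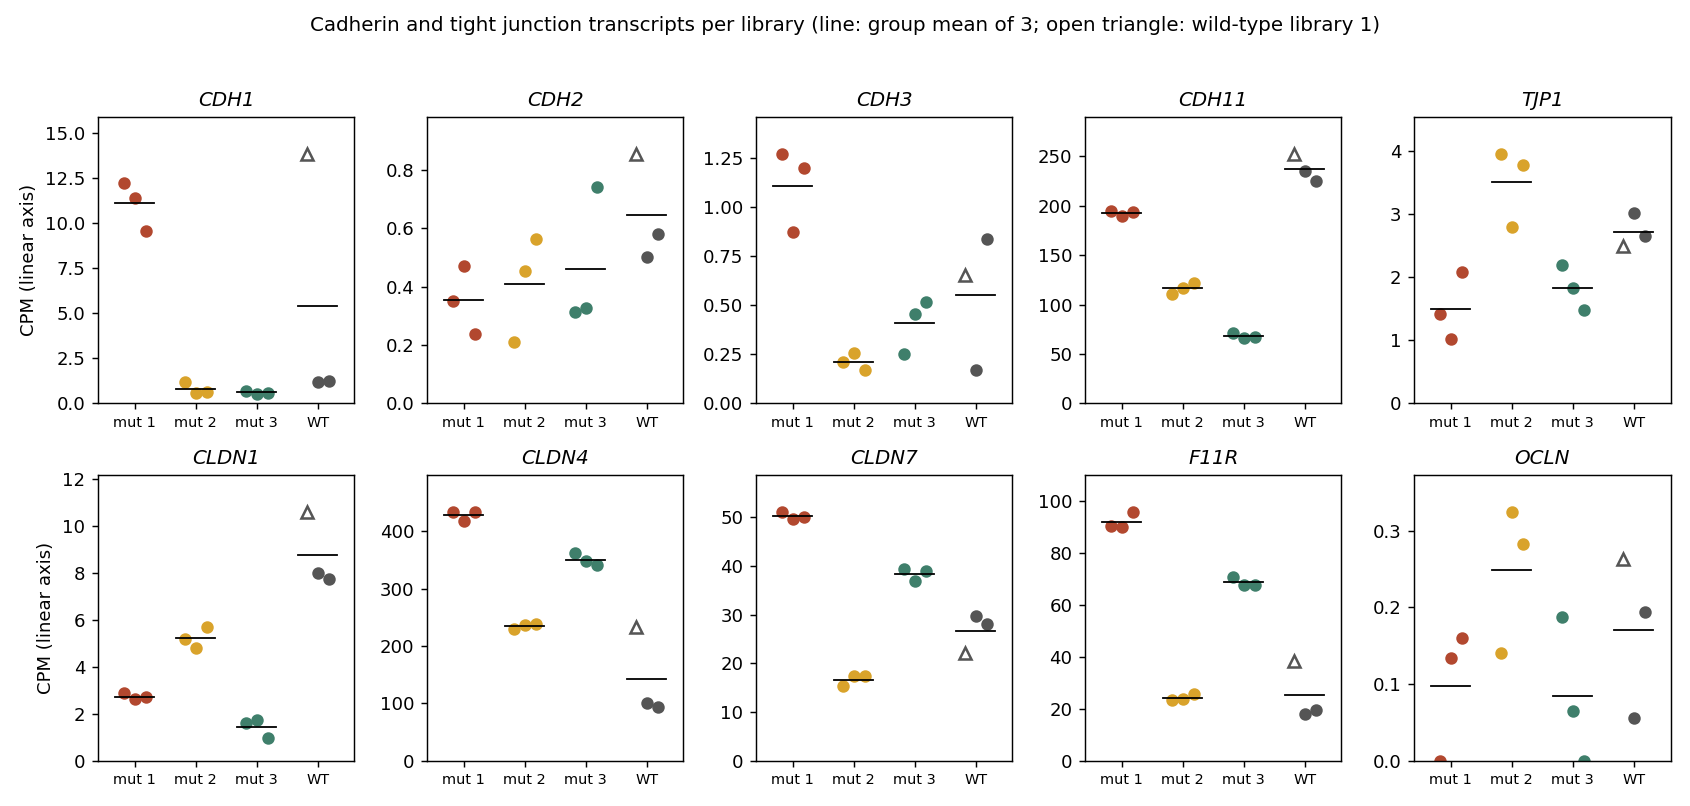
CPM of each of the 10 genes in each library on linear axes that start at 0, by group (mut 1, mut 2, mut 3, WT for wild type). Points are libraries, the open triangle is wild-type library 1 and the line is the mean of 3 libraries; CLDN4, CLDN7 and F11R stand highest with mutation 1, and CDH11 and CLDN1 highest in wild type.

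E-cadherin transcripts were high with mutation 1, low with mutations 2 and 3, and split within wild type. CDH1 (ENSG00000039068, chr16:68737225-68835548, plus strand, hg38) had 12.2, 11.4 and 9.58 CPM with mutation 1, 1.20, 0.584 and 0.621 CPM with mutation 2 and 0.689, 0.523 and 0.593 CPM with mutation 3, against 13.8, 1.17 and 1.23 CPM in wild type. The mutation 1 libraries were all high, the mutation 2 and 3 libraries all low, and wild type held 1 high library, library 1, and 2 low ones. Only mutation 3 did not overlap wild type.

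CDH1 was 1.04 higher with mutation 1 than in wild type on the log2 scale (SE 0.73, adjusted p = 0.222), which did not pass. Without wild-type library 1 the difference was 3.21 (SE 0.20, adjusted p = 5.96e-32), and against that library alone it was -0.33 (SE 0.15, adjusted p = 0.0414), so the sign depended on which wild-type library was used. CDH1 fell with mutation 2, by a log2 fold change of -2.76 (SE 0.89, adjusted p = 0.0319), which was -0.61 and not called without library 1 (adjusted p = 0.11) and -4.14 against it alone. The call for mutation 2 was also lost without any 1 of the mutation 2 libraries, with adjusted p between 0.0594 and 0.101. CDH1 fell with mutation 3 by a log2 fold change of -3.14 (SE 0.93, adjusted p = 0.0132), which was -0.98 without library 1 (SE 0.37, adjusted p = 0.0125) and -4.51 against it alone (adjusted p = 1.39e-38). Both falls also missed the threshold when no filter on low counts was used (adjusted p = 0.131 and 0.063) and when only the 2 groups were fitted (adjusted p = 0.146 and 0.0675).

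Comparisons among mutants do not use wild-type levels, but their estimate of spread is shared with the wild-type libraries. CDH1 was 13.9-fold higher with mutation 1 than with mutation 2 (log2 3.80, SE 0.88, adjusted p = 0.00297) and 18.1-fold higher with mutation 1 than with mutation 3 (log2 4.18, SE 0.92, adjusted p = 0.00395). With mutation 3 it differed by -0.38 on the log2 scale against mutation 2 (95% interval -2.81 to 2.04, adjusted p = 0.79), an interval too wide to tell a rise and a fall apart. Summed over 3 libraries, CDH1 had 37 counts with mutation 2 and 27 with mutation 3, against 463 with mutation 1. The size of these fold differences thus rests on few counts on the low side.

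N-cadherin transcripts were close to the limit of detection. CDH2 (ENSG00000170558, chr18:27950966-28177446, minus strand) had 5, 7 and 3 counts with mutation 1, 3, 7 and 10 with mutation 2 and 5, 5 and 10 with mutation 3, against 13, 9 and 9 in wild type. Summed over 3 libraries these are 15 counts (95% exact Poisson interval 8.4 to 24.7) with mutation 1, 20 (12.2 to 30.9) with mutation 2, 20 (12.2 to 30.9) with mutation 3 and 31 (21.1 to 44) in wild type, intervals that cover counting error only. All 3 mutation 1 libraries lay below the wild-type libraries in CPM (0.239 to 0.470 against 0.503 to 0.853), while mutations 2 and 3 overlapped wild type. With no filter on low counts, CDH2 differed from wild type by -0.83 with mutation 1 (SE 0.53, adjusted p = 0.282), -0.61 with mutation 2 (SE 0.51, adjusted p = 0.568) and -0.49 with mutation 3 (SE 0.51, adjusted p = 0.521), so no difference was detectable at this depth. CDH2 also shares 136 exon bases with an antisense gene, which counting without strand cannot separate.

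The balance of E-cadherin to N-cadherin transcripts does not depend on library scaling. The log2 ratio of CDH1 to CDH2, per kilobase and with 0.5 added to each count, was 4.66, 4.19 and 4.79 with mutation 1, 2, 0.02 and -0.19 with mutation 2 and 0.74, 0.31 and -0.62 with mutation 3, against 3.65, 0.86 and 0.72 in wild type. The ratio was above every wild-type library in all 3 mutation 1 libraries. The mean difference from wild type was 2.80 with mutation 1 (exact two-sided permutation p = 0.1, adjusted over 3 comparisons 0.30), -1.13 with mutation 2 (exact p = 0.5, adjusted 0.50) and -1.60 with mutation 3 (exact p = 0.2, adjusted 0.30). Without wild-type library 1 these differences were 3.76, -0.18 and -0.65. With 3 libraries against 3 the smallest possible p is 0.1, so none of these could pass.

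P-cadherin, the classical cadherin of basal and myoepithelial breast cells, lies 14608 bases before CDH1 on the same strand. CDH3 (ENSG00000062038, chr16:68636189-68722616) had 1.27, 0.873 and 1.20 CPM with mutation 1, 0.211, 0.259 and 0.169 CPM with mutation 2 and 0.250, 0.457 and 0.519 CPM with mutation 3, against 0.656, 0.168 and 0.841 CPM in wild type. The mutation 1 libraries lay above all others, and mutations 2 and 3 overlapped wild type. It passed the filter on low counts only through the mutation 1 libraries, so its differences with mutation 1 are given without a test.

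With mutation 1, CDH3 had a fitted log2 difference of 1.02 from wild type (SE 0.45), of 1.19 without wild-type library 1 and of 0.73 against it alone. It was 2.34 higher with mutation 1 than with mutation 2 (SE 0.53) and 1.44 higher with mutation 1 than with mutation 3 (SE 0.48), again as a description and with no test. It differed from wild type by -1.33 with mutation 2 (SE 0.57, adjusted p = 0.0906), by -1.16 without wild-type library 1, by -1.60 against it alone and by -1.79 without wild-type library 2 (adjusted p = 0.096, 0.0592 and 0.0109). With mutation 3 the difference was -0.42 (SE 0.51, adjusted p = 0.504), -0.25 without wild-type library 1, -0.70 against it alone and 0.01 without wild-type library 3 (adjusted p = 0.689, 0.355 and 0.987). With mutation 3 it was 0.91 higher than with mutation 2 (95% interval -0.42 to 2.23, adjusted p = 0.228).

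Cadherin 11 was the most abundant of the 4 cadherins and fell with every mutation. CDH11 encodes OB-cadherin, a type II cadherin of mesenchymal cells and osteoblasts. CDH11 (ENSG00000140937, chr16:64943753-65126112, minus strand) had 195, 190 and 194 CPM with mutation 1, 111, 117 and 122 CPM with mutation 2 and 71.0, 66.4 and 67.5 CPM with mutation 3, against 252, 235 and 225 CPM in wild type. No 2 groups overlapped, and the order was wild type, mutation 1, mutation 2, mutation 3, with every neighbouring pair past the threshold.

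The log2 fold change of CDH11 was -0.30 with mutation 1 (SE 0.06, adjusted p = 0.00103), -1.02 with mutation 2 (SE 0.06, adjusted p = 2.47e-06) and -1.80 with mutation 3 (SE 0.06, adjusted p = 1.15e-08). Without wild-type library 1 the log2 fold changes were -0.25, -0.97 and -1.75, and against library 1 alone -0.40, -1.12 and -1.89, all past the threshold. CDH11 was 0.73 higher with mutation 1 than with mutation 2 (adjusted p = 1.46e-06) and 1.50 higher with mutation 1 than with mutation 3 (adjusted p = 6.83e-08). With mutation 3 it was lower than with mutation 2 (log2 fold change -0.77, adjusted p = 2.19e-06).

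Among the claudins, CLDN1 fell while CLDN4 and CLDN7 moved differently by mutation. Claudin 1 is the barrier-forming claudin best known from the skin. CLDN1 (ENSG00000163347, chr3:190305701-190322475, minus strand) had 2.88, 2.62 and 2.71 CPM with mutation 1, 5.21, 4.80 and 5.70 CPM with mutation 2 and 1.63, 1.76 and 0.963 CPM with mutation 3, against 10.6, 7.99 and 7.76 CPM in wild type. Every mutant library lay below every wild-type library, and the 3 mutant groups did not overlap each other.

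The log2 fold change of CLDN1 was -1.68 with mutation 1 (SE 0.20, adjusted p = 2.77e-05), -0.75 with mutation 2 (SE 0.19, adjusted p = 0.0113) and -2.58 with mutation 3 (SE 0.22, adjusted p = 3e-06). Without wild-type library 1 the log2 fold changes were -1.52, -0.58 and -2.41, and against it alone -1.97, -1.02 and -2.85, all past the threshold. The fall with mutation 2 missed the threshold without mutation 2 library 2 (-0.68, adjusted p = 0.0531). CLDN1 was lower with mutation 1 than with mutation 2 (log2 fold change -0.93, adjusted p = 0.00207), 0.90 higher with mutation 1 than with mutation 3 (adjusted p = 0.0083), and lower with mutation 3 than with mutation 2 (log2 fold change -1.84, adjusted p = 4.19e-05).

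Claudin 4, which restricts passage of sodium between cells and is a receptor of Clostridium perfringens enterotoxin, rose with mutations 1 and 3. CLDN4 (ENSG00000189143, chr7:73799542-73832693, plus strand) had 433, 418 and 433 CPM with mutation 1, 230, 237 and 238 CPM with mutation 2 and 362, 348 and 341 CPM with mutation 3, against 233, 101 and 93.6 CPM in wild type. Mutations 1 and 3 lay above every wild-type library, and wild-type library 1 fell within the range of mutation 2.

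CLDN4 was 3.01-fold higher with mutation 1 than in wild type (log2 1.59, SE 0.28, adjusted p = 0.000428) and 2.46-fold higher with mutation 3 (log2 1.30, SE 0.28, adjusted p = 0.00204). Without wild-type library 1 these log2 values were 2.14 and 1.86, and against it alone 0.86 and 0.58, all past the threshold. With mutation 2 the log2 difference was 0.72 (SE 0.27, adjusted p = 0.0598), 1.28 without library 1 (SE 0.04, adjusted p = 2.41e-66) and 0.00 against library 1 alone (SE 0.04, adjusted p = 0.961). DESeq2 called the mutation 2 difference with all libraries (adjusted p = 0.0304).

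CLDN4 was 0.87 higher with mutation 1 than with mutation 2 (SE 0.27, adjusted p = 0.0161; 0.0781 with no filter on low counts). It was 0.29 higher with mutation 1 than with mutation 3 (95% interval -0.31 to 0.89, adjusted p = 0.42) and 0.58 higher with mutation 3 than with mutation 2 (95% interval -0.02 to 1.18, adjusted p = 0.0966). In both of these pairs the groups did not overlap. Both passed when wild-type library 1 was left out of the fit, which shares its estimate of spread (adjusted p = 2.81e-17 and 3.74e-40).

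Claudin 7, a claudin of the basolateral membrane that binds EPCAM, rose with mutations 1 and 3 and fell with mutation 2. CLDN7 (ENSG00000181885, chr17:7259903-7263983, minus strand) had 51.0, 49.5 and 50.1 CPM with mutation 1, 15.3, 17.3 and 17.3 CPM with mutation 2 and 39.4, 36.8 and 39.0 CPM with mutation 3, against 22.2, 29.7 and 28.0 CPM in wild type. The groups did not overlap, and each neighbouring pair in the order mutation 1, mutation 3, wild type, mutation 2 passed the threshold.

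CLDN7 was 0.91 higher with mutation 1 than in wild type (SE 0.10, adjusted p = 1.24e-05) and 0.53 higher with mutation 3 (SE 0.10, adjusted p = 0.000948), and it fell by 0.68 with mutation 2 (SE 0.10, adjusted p = 0.000546). These log2 fold changes were 0.80, 0.42 and -0.79 without wild-type library 1, and 1.16, 0.78 and -0.42 against it alone, for mutations 1, 3 and 2 in that order, all past the threshold. CLDN7 was 1.59 higher with mutation 1 than with mutation 2 (adjusted p = 2.09e-07), 0.39 higher with mutation 1 than with mutation 3 (adjusted p = 0.00895) and 1.21 higher with mutation 3 than with mutation 2 (adjusted p = 3.69e-06). It shares 269 exon bases with a gene at 0 counts and 38 with ELP5 on the other strand.

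The promoter windows of the 3 claudins are shown because the claudins moved differently and because the family of repressors that silences CDH1 binds the letters CAGGTG, an E-box. Each window runs over 300 bases, 250 before a RefSeq transcript start and 50 after it (GRCh38.p14), and lies inside or at the edge of the gene's annotated span. They are written 5′ to 3′ on the gene's strand, with CAGGTG or its reverse complement CACCTG in capitals. They are CLDN7 at chr17:7262429-7262728 (minus strand), CLDN4 at chr7:73830746-73831045 (plus strand) and CLDN1 at chr3:190322397-190322696 (minus strand).
CLDN7: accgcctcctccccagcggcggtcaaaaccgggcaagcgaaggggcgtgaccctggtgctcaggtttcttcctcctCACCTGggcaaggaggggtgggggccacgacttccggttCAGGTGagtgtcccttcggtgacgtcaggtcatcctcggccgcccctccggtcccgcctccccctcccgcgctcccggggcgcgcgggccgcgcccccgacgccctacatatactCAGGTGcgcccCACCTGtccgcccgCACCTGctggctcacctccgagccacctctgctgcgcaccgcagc
CLDN4: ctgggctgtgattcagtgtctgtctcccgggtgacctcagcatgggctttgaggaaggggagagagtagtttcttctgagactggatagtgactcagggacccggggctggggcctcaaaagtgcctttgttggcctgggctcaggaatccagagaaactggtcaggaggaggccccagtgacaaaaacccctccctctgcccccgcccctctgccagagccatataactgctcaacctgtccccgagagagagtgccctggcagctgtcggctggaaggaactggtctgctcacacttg
CLDN1: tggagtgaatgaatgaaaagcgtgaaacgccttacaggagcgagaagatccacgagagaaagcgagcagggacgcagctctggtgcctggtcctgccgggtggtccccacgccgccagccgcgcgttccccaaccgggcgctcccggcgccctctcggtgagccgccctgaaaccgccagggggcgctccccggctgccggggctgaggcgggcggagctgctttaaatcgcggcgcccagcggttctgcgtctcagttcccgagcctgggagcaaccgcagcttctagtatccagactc
The CLDN7 window holds 5 of these letters' matches, starting at positions -174, -135, -20, -9 and 5 with the start base as 0, and the CLDN4 and CLDN1 windows hold 0. Among all 35116 promoter windows, 20.6% hold at least 1 match, 0.635% hold 3 or more and 0.094% hold 5 or more. The CLDN4 window has 5 CG pairs, against 30 for CLDN7 and 31 for CLDN1 and a median of 14 over all windows. A second CLDN7 window, at a start further upstream, holds 0 matches. The windows of the other genes hold 1 and 2 matches at the 2 OCLN starts, 1 match at 1 of the 4 TJP1 starts and 0 at the CDH2 starts. Windows were found for 6 of the 10 genes (CLDN1, CLDN4, CLDN7, CDH2, OCLN and TJP1), and CDH1, CDH3, CDH11 and F11R had none in the table used. A match describes the letters only, and binding was not measured.

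F11R, an immunoglobulin-family adhesion protein of the tight junction that binds zonula occludens and PAR proteins, rose with mutations 1 and 3. F11R (ENSG00000158769, chr1:160995211-161021348, minus strand) had 90.4, 90.2 and 95.8 CPM with mutation 1, 23.6, 23.9 and 25.8 CPM with mutation 2 and 70.7, 67.9 and 67.6 CPM with mutation 3, against 38.4, 17.9 and 19.6 CPM in wild type. Mutations 1 and 3 lay above all wild-type libraries, and the mutation 2 libraries lay between wild-type library 1 and the other 2.

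F11R was 3.65-fold higher with mutation 1 than in wild type (log2 1.87, SE 0.23, adjusted p = 3.03e-05) and 2.72-fold higher with mutation 3 (log2 1.44, SE 0.23, adjusted p = 0.000275). These log2 values were 2.30 and 1.88 without wild-type library 1 and 1.25 and 0.83 against it alone, all past the threshold. With mutation 2 the log2 difference was -0.05 (95% interval -0.55 to 0.45, adjusted p = 0.887), but 0.39 without library 1 (adjusted p = 3.11e-06) and -0.66 against library 1 alone (adjusted p = 1.53e-11).

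F11R was 1.92 higher with mutation 1 than with mutation 2 (adjusted p = 2.57e-05) and 1.49 higher with mutation 3 than with mutation 2 (adjusted p = 0.000251). Between mutations 1 and 3 the log2 difference was 0.42 (95% interval -0.06 to 0.90, adjusted p = 0.144), and it passed without wild-type library 1 in the fit (adjusted p = 1.95e-15). F11R shares 1853 of its 5066 exon bases with a read-through gene that had 35 counts over all libraries, so its level is uncertain to the extent that shared reads were not counted.

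Occludin, a membrane protein of the tight junction, was almost undetected. OCLN (ENSG00000197822, chr5:69492292-69558104, plus strand) had 0, 2 and 2 counts with mutation 1, 2, 5 and 5 with mutation 2 and 3, 1 and 0 with mutation 3, against 4, 1 and 3 in wild type. Every mutant group overlapped wild type. With no filter on low counts its log2 difference from wild type was -0.74 with mutation 1 (adjusted p = 0.616), 0.58 with mutation 2 (adjusted p = 0.738) and -0.85 with mutation 3 (adjusted p = 0.571). OCLN has an unprocessed pseudogene, OCLNP1, on the same chromosome (chr5:71074225-71093193), itself at 0 counts, and reads that fit both could have been dropped by the mapping quality limit.

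The scaffold TJP1, which binds claudins, occludin and actin, was low in all libraries and fell with mutation 1. TJP1 (ENSG00000104067, chr15:29699367-29968865, minus strand) had 1.41, 1.01 and 2.08 CPM with mutation 1, 3.94, 2.79 and 3.78 CPM with mutation 2 and 2.19, 1.83 and 1.48 CPM with mutation 3, against 2.49, 3.02 and 2.65 CPM in wild type. Mutations 1 and 3 lay below all wild-type libraries, and mutation 2 overlapped wild type.

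The log2 fold change of TJP1 with mutation 1 was -0.87 (SE 0.27, adjusted p = 0.0134), -0.95 without wild-type library 1 and -0.77 against it alone, all past the threshold. The fall missed the threshold without mutation 1 library 2 (-0.64, adjusted p = 0.0575). TJP1 differed from wild type by 0.36 with mutation 2 (95% interval -0.19 to 0.91, adjusted p = 0.278), by 0.31 without wild-type library 1 and by 0.48 against it alone (adjusted p = 0.199 and 0.157). With mutation 3 it differed by -0.56 (SE 0.26, adjusted p = 0.084), by -0.61 without library 1 and by -0.44 against it alone (adjusted p = 0.0174 and 0.224). TJP1 was lower with mutation 1 than with mutation 2 (log2 fold change -1.24, adjusted p = 0.0018) and lower with mutation 3 than with mutation 2 (log2 fold change -0.93, adjusted p = 0.0111). With mutation 1 it differed from mutation 3 by -0.31 (95% interval -0.92 to 0.30, adjusted p = 0.397). The files hold 7661 IDs outside the GENCODE v29 primary assembly, with 0.32% of counts. Whether any is another copy of TJP1 or OCLN was not analysed here.

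**Figure D2:**
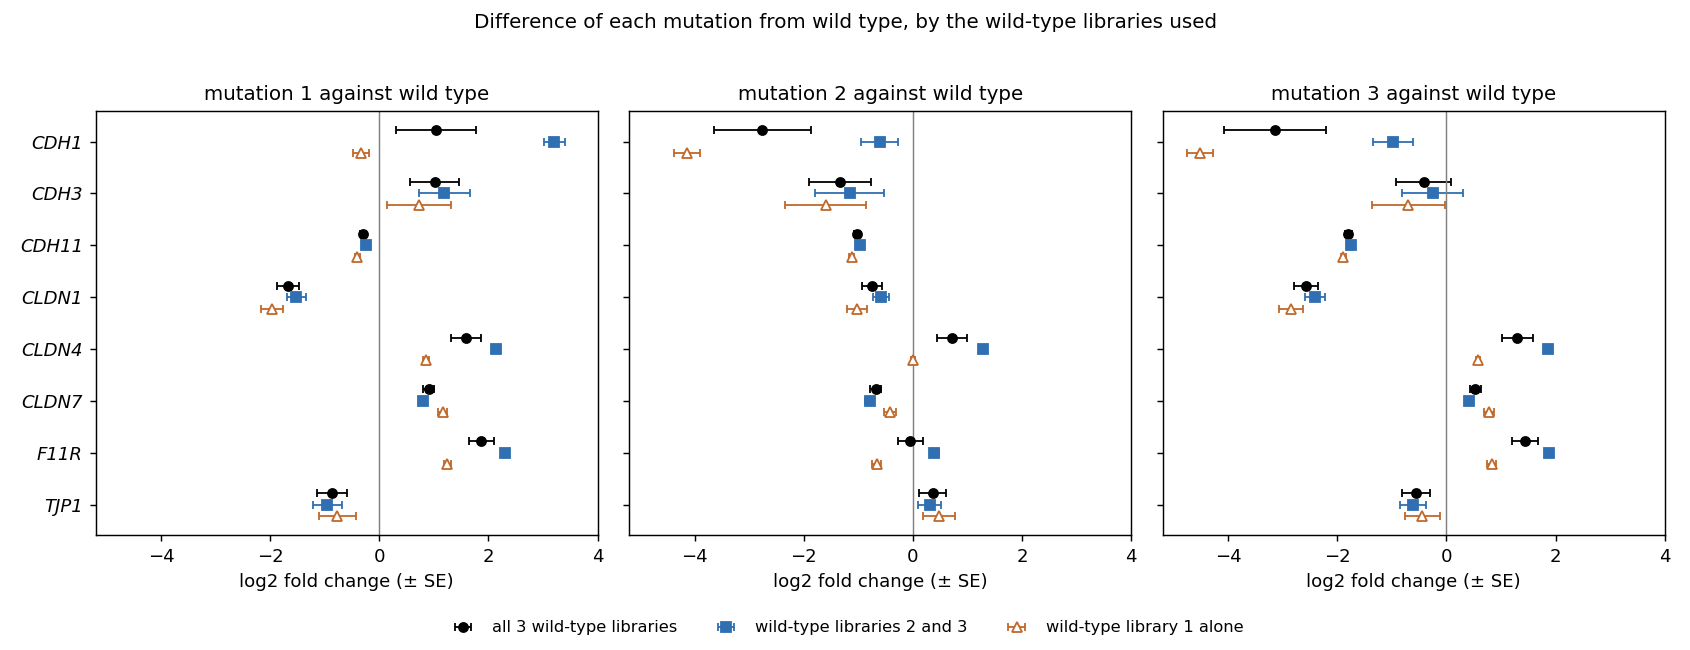
Log2 fold change (± SE) of each tested gene with mutation 1, 2 or 3 against wild type, using all 3 wild-type libraries (circles), libraries 2 and 3 (squares) or library 1 alone (open triangles). CDH11 and CLDN1 lie below 0 in every panel whichever libraries are used, whereas CDH1 with mutation 1 lies at 3.21 without library 1 and at -0.33 against it.

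Counted over the genes tested, mutation 1 against wild type had 3 of 8 higher (CLDN4, CLDN7, F11R), 3 lower (CDH11, CLDN1, TJP1) and 2 that did not pass, where 69% of all genes tested were called, 32.5% higher and 36.5% lower. Mutation 2 had 0 higher, 4 lower (CDH1, CDH11, CLDN1, CLDN7) and 4 that did not pass, where 37% of all genes were called, 16.9% higher and 20.1% lower. Mutation 3 had 3 higher (CLDN4, CLDN7, F11R), 3 lower (CDH1, CDH11, CLDN1) and 2 that did not pass, where 59.3% of all genes were called, 28.1% higher and 31.2% lower. The groups did not overlap for 7 of the 8 genes with mutation 1, 3 with mutation 2 and 7 with mutation 3, beside 68%, 42.6% and 61% of all genes. With 8 genes, shares like these are not a result about these genes. The 7 with mutation 1 include CDH3, which passed the filter on low counts only through mutation 1. Between the fits without wild-type library 1 and against it alone, CDH1 changed direction with mutation 1 and F11R with mutation 2. With mutation 3 the count was 0, and the share of all genes changing direction was not computed.

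The median log2 fold change of the 8 tested genes was 0.97 with mutation 1, -0.72 with mutation 2 and -0.49 with mutation 3, beside -0.04, -0.01 and -0.01 over all genes tested. All 8 differed among the 4 groups by the F test, as did 83% of all genes. Without wild-type library 1, 5 rose and 3 fell with mutation 1, 2 rose and 3 fell with mutation 2, and 3 rose and 4 fell with mutation 3, where 82.7%, 67.9% and 77.1% of all genes were called. The medians, the F test and the 5 that rose with mutation 1 include CDH3, which passed the filter only through mutation 1.

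Mutation 1 against mutation 2 had 6 of 8 higher (CDH1, CDH3, CDH11, CLDN4, CLDN7, F11R) and 2 lower (CLDN1, TJP1) and mutation 1 against mutation 3 had 5 of 8 higher (CDH1, CDH3, CDH11, CLDN1, CLDN7), 0 lower and 3 that did not pass. Both counts include CDH3, which passed the filter on low counts only through mutation 1, so its call is no result. Over all genes, 65.4% were called for mutation 1 against mutation 2, 31.8% higher and 33.6% lower, and 42.8% for mutation 1 against mutation 3, 20.2% higher and 22.5% lower. Mutation 3 against mutation 2 had 2 higher (CLDN7, F11R), 3 lower (CDH11, CLDN1, TJP1) and 3 that did not pass, where 52.9% of all genes were called, 25.7% higher and 27.2% lower. The groups did not overlap for 8, 7 and 6 of the 8 genes in these 3 comparisons, beside 81.6%, 69.8% and 75.9% of all genes. The median log2 fold changes over the 8 were 1.23, 0.66 and 0.10, beside -0.03, -0.01 and 0.00 over all genes. CDH3 is also in these medians and in the overlap counts of mutation 1 against mutations 2 and 3.

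**Figure D3:**
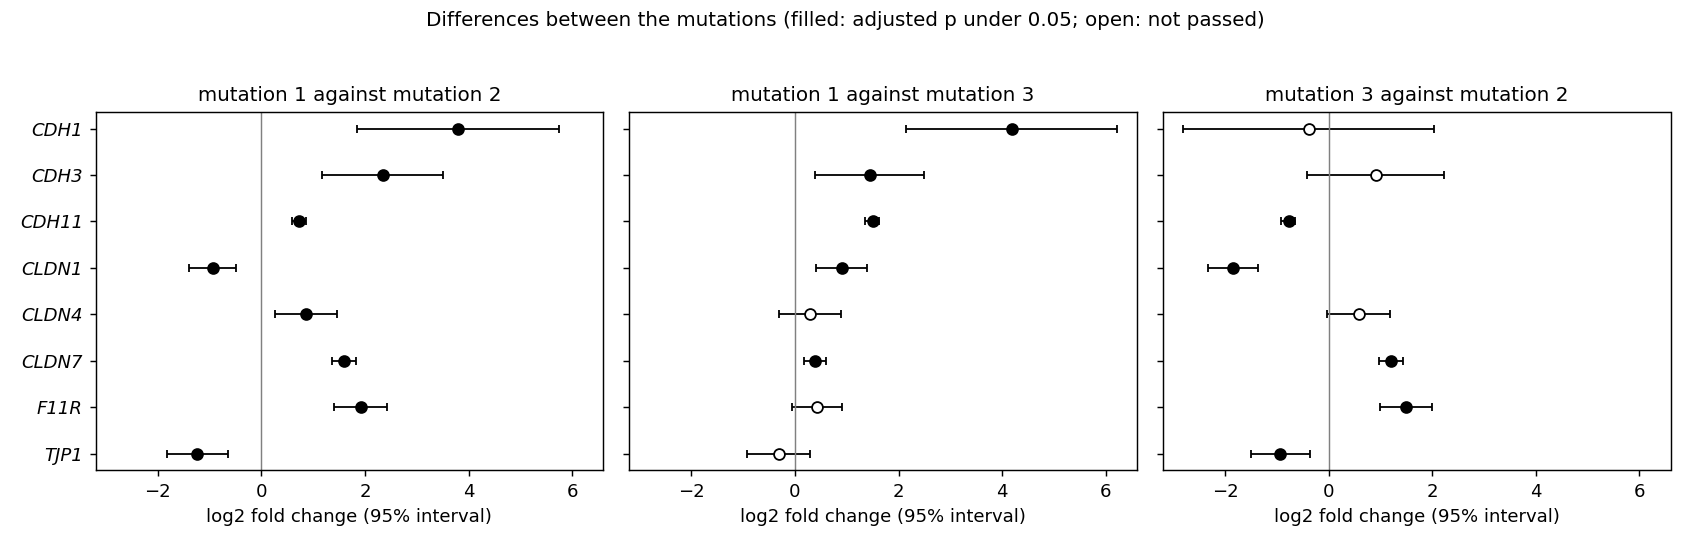
Log2 fold change with its 95% interval for each tested gene between pairs of mutations, filled where the adjusted p was under 0.05 and open where it was not. CDH3 is drawn although it passed the filter only through mutation 1, and CDH1 has the widest intervals in each panel.

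The genes most alike in profile were compared by the root mean square difference of their centred log2 CPM over the 12 libraries, where 0 is identical. CLDN4 and F11R were nearest to each other at 0.42, CLDN7 was nearest to F11R at 0.53 and CDH11 and CLDN1 were nearest to each other at 0.66. Among the 8 genes tested, the nearest to CDH1 was CDH3 at 1.30. Among 12374 other genes tested with a mean of at least 1 CPM, the profiles nearest to CDH1 were the long non-coding RNA LINC01085 at 0.50, ANGPT1, which encodes the ligand angiopoietin 1, at 0.77, and LYPD6B at 0.79. LINC01085 averaged 3.82 ± 0.325 CPM with mutation 1, 0.371 ± 0.174 with mutation 2 and 0.208 ± 0.154 with mutation 3 (SD, n = 3 each), against 4.33, 0.112 and 0.388 CPM in wild-type libraries 1, 2 and 3. As for CDH1, wild-type library 1 was high and the other wild-type libraries were low.

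Other genes of cell junctions moved in both directions. Of 16 catenins, nectins and linkers, 12 were tested, and 7 rose and 4 fell with mutation 1, 3 rose and 4 fell with mutation 2, and 4 rose and 6 fell with mutation 3, with median log2 fold changes of 0.25, -0.14 and -0.19. Over all genes 69%, 37% and 59.3% were called, with medians of -0.04, -0.01 and -0.01. Counts of this list and of the others that use all 3 wild-type libraries are read against those shares. Beta-catenin (CTNNB1), which links cadherin tails to alpha-catenin and also signals for WNT, fell with all 3 mutations, with log2 fold changes of -0.26, -0.26 and -0.46 (adjusted p = 0.000664, 0.00198 and 1.64e-05). Alpha-catenin (CTNNA1) rose by 0.28, 0.14 and 0.27 (adjusted p = 0.000309, 0.0392 and 0.000593), and against wild-type library 1 alone the mutation 2 value was 0.08 and did not pass (adjusted p = 0.0935). The p120-catenin CTNND1, which stabilises cadherins at the membrane, rose by 0.45 with mutation 1 (adjusted p = 0.0189) and differed by -0.30 and -0.11 with mutations 2 and 3 (adjusted p = 0.137 and 0.561). For mutations 2 and 3, CTNND1 changed sign with the wild-type libraries, at -0.50 and -0.30 without library 1 and 0.21 and 0.40 against it alone.

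Plakoglobin (JUP), shared by adherens junctions and desmosomes, rose by 0.22 with mutation 1 (adjusted p = 0.00283) and fell with mutations 2 and 3, with log2 fold changes of -0.66 and -0.28 (adjusted p = 1.3e-05 and 0.000813). LIMD1, a LIM-domain protein found at adherens junctions, rose by 0.98, 0.51 and 0.85 with mutations 1, 2 and 3 (adjusted p = 1.59e-07, 0.000142 and 9.44e-07). SORBS3, which encodes the vinculin-binding protein vinexin, fell in all 3, with log2 fold changes of -0.71, -0.97 and -0.81 (adjusted p = 7.68e-06, 9.78e-06 and 5.07e-06). JUP, LIMD1, SORBS3 and CTNNB1 passed in the same direction with and without wild-type library 1. Over the list without that library, 7, 4 and 5 rose and 5, 8 and 7 fell with mutations 1, 2 and 3. In that fit 82.7%, 67.9% and 77.1% of all genes were called.

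Of 45 other tight junction genes, 31 were tested, and 10 rose and 11 fell with mutation 1, 10 rose and 4 fell with mutation 2, and 9 rose and 8 fell with mutation 3. Their median log2 fold changes were 0.11, 0.17 and -0.04, and over all genes 69%, 37% and 59.3% were called. CLDN12, a claudin without the usual zonula occludens binding tail, averaged 114 ± 5.29 CPM with mutation 1, 48.6 ± 1.57 with mutation 2 and 70 ± 1.85 with mutation 3 (SD, n = 3 each), against a mean of 44.8 CPM in wild type. It rose by 1.34 with mutation 1 and by 0.64 with mutation 3 (adjusted p = 9.08e-09 and 3.1e-06), and with mutation 2 the difference was 0.12 (adjusted p = 0.113).

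AMOTL1, an angiomotin-family scaffold, rose by 0.58, 0.95 and 0.33 with mutations 1, 2 and 3 (adjusted p = 2.14e-06, 1.3e-06 and 0.000243). With wild-type library 1 left out, 32 genes of this list were tested, and 14, 16 and 13 rose and 13, 12 and 12 fell with mutations 1, 2 and 3. Of all genes, 82.7%, 67.9% and 77.1% were called in that fit.

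Of 18 other cadherins, 3 were tested: CDH24 rose by 0.41 with mutation 1 (adjusted p = 0.0206) and CDH4 fell by 1.31 with mutation 3 (adjusted p = 0.00233), while CDH17 averaged 0.978 CPM with mutation 3, against 0.103 CPM in wild type. CDH17 passed the filter only through mutation 3 and is given with no test. The rise of CDH24 was 0.24 without wild-type library 1 and 0.80 against it alone, both past the threshold. Against wild-type library 1 alone the difference of CDH4 did not pass (log2 fold change -0.35, adjusted p = 0.115). The log2 fold change of CDH4 with mutation 1 was -0.58 without library 1 and 0.69 against it alone. Without library 1, 4 of these cadherins were tested, and 1, 0 and 1 rose and 2, 2 and 3 fell with mutations 1, 2 and 3, where the rise with mutation 3 is CDH17. The shares of all genes called were then 82.7%, 67.9% and 77.1%. These list counts also depend on the wild-type libraries used. CDH4 with mutation 2 was at -0.71 without library 1 and 0.56 against it alone. CDH24 with mutation 3 was at -0.18 and 0.39 in the same fits, while CDH4 with mutation 3 kept its sign.

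Of 15 desmosome genes, 9 were tested, and 4 rose and 2 fell with mutation 1, 1 rose and 2 fell with mutation 2, and 3 rose and 3 fell with mutation 3, with medians of 0.13, -0.36 and 0.30, where 69%, 37% and 59.3% of all genes were called. PERP, a membrane protein needed for desmosome assembly, rose by 0.89 and by 0.63 with mutations 1 and 3 (adjusted p = 8.07e-07 and 1.89e-05). The desmosomal cadherin DSG2 rose by 1.71 and by 0.91 in those groups (adjusted p = 5.73e-05 and 0.00475), at 2.14 and 1.34 without wild-type library 1 and 1.10 and 0.31 against it alone, all past the threshold. The desmosomal cadherin DSC2 fell with mutations 2 and 3, with log2 fold changes of -1.57 and -0.64 (adjusted p = 0.00106 and 0.0457), and the mutation 3 fall did not pass without wild-type library 1 (-0.25, adjusted p = 0.18). Without that library 6, 3 and 4 desmosome genes rose and 2, 4 and 2 fell with mutations 1, 2 and 3. Over all genes 82.7%, 67.9% and 77.1% were then called.

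**Figure D4:**
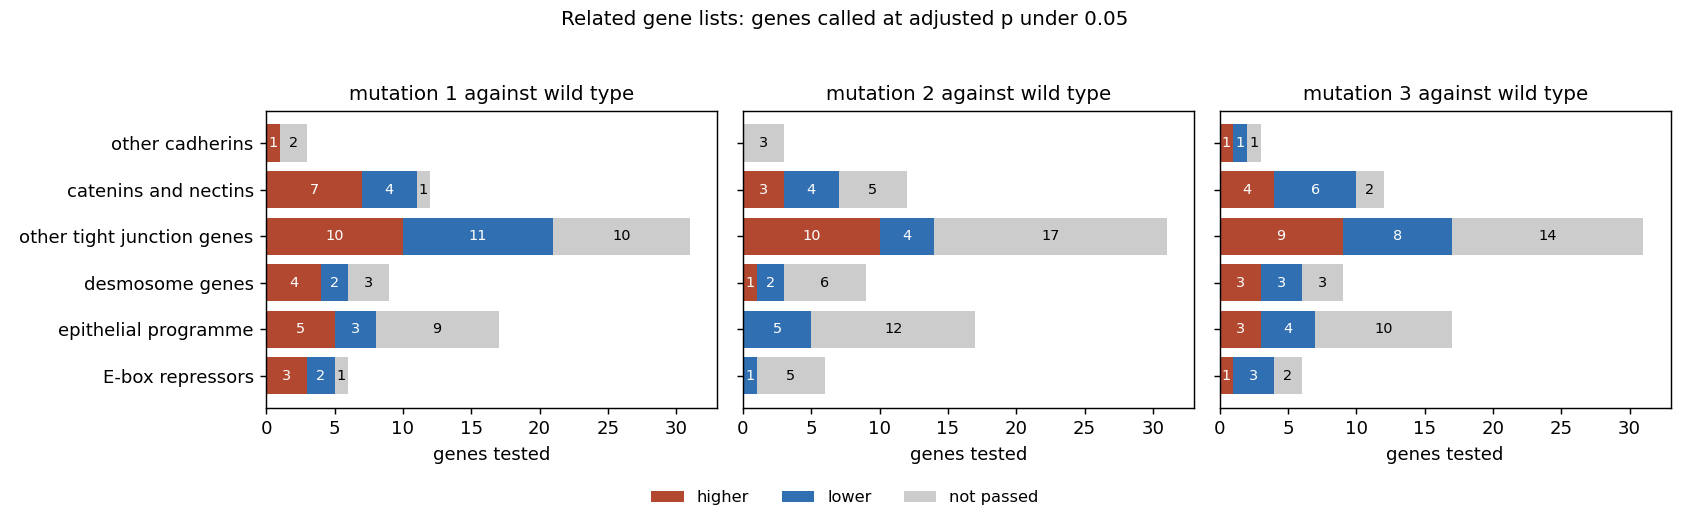
Numbers of tested genes that were higher, lower or did not pass in each of 6 related lists, for each mutation against all 3 wild-type libraries. Other tight junction genes split into 10 higher and 11 lower with mutation 1, and no list moved in 1 direction in all 3 comparisons.

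Of 23 epithelial programme genes, 17 were tested, and 5 rose and 3 fell with mutation 1, 0 rose and 5 fell with mutation 2, and 3 rose and 4 fell with mutation 3, with medians of 0.40, -0.09 and 0.08, where 69%, 37% and 59.3% of all genes were called. These counts turned with the wild-type libraries used. Without library 1, 11, 11 and 9 genes rose and 3, 5 and 4 fell with mutations 1, 2 and 3, while against library 1 alone 5, 0 and 4 rose and 10, 13 and 11 fell. The shares of all genes called were 82.7%, 67.9% and 77.1% without library 1 and 70.9%, 50.9% and 66.5% against it alone. The adhesion molecule EPCAM averaged 30.6 ± 4.08 CPM with mutation 1, 16.4 ± 0.212 with mutation 2 and 18.2 ± 2.67 with mutation 3, against 17.7 and 5.64 CPM in wild-type libraries 1 and 2. EPCAM rose by 1.72 with mutation 1 (adjusted p = 0.00261), and differed by 0.82 with mutation 2 and by 0.98 with mutation 3 (adjusted p = 0.127 and 0.0529). Those 2 values were 1.67 and 1.82 without wild-type library 1, both past the threshold, and -0.12 and 0.03 against it alone.

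The transcription factor KLF5 fell with mutations 1, 2 and 3, with log2 fold changes of -1.21, -0.76 and -1.23 (adjusted p = 2.74e-06, 0.000353 and 4.39e-06), in the same direction with and without wild-type library 1. The protease inhibitor SPINT2 rose by 0.42 with mutation 1 and fell by 0.79 with mutation 2 (adjusted p = 0.00215 and 0.000144), and with mutation 3 it differed by 0.03 (adjusted p = 0.816; -0.09 without wild-type library 1 and 0.30 against it alone, both past the threshold). AP1M2, a subunit of the epithelial sorting adaptor, fell with mutations 2 and 3, with log2 fold changes of -0.59 and -1.19 (adjusted p = 0.0272 and 0.000276), while without wild-type library 1 the values were -0.29 and -0.89 and both still passed. ESRP1 and GRHL2, an epithelial splicing regulator and an activator of CDH1, were below the filter, at no more than 0.409 and 0.121 mean CPM in any group.

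Of 10 genes for repressors or binders of E-boxes, 6 were tested, and 3 rose and 2 fell with mutation 1, 0 rose and 1 fell with mutation 2, and 1 rose and 3 fell with mutation 3, with medians of 0.39, -0.11 and -0.29, where 69%, 37% and 59.3% of all genes were called. SNAI1, which encodes Snail, a repressor of CDH1, averaged 19.5 ± 0.956 CPM with mutation 1, 1.53 ± 0.438 with mutation 2 and 6.80 ± 0.280 with mutation 3, against 1.25 CPM in wild type. SNAI1 rose by 3.98 with mutation 1 and by 2.46 with mutation 3 (adjusted p = 8.73e-06 and 0.000445), and with mutation 2 the difference was 0.33 (adjusted p = 0.605; 1.31 and 0.000374 without wild-type library 1, -0.68 and 0.0554 against it alone). SNAI1 was highest with mutation 1, the group with the highest CLDN4, CLDN7 and F11R and with high CDH1 in all 3 libraries. It was also raised with mutation 3, where CDH1 was low. Wild-type library 1, with CDH1 at 13.8 CPM, had SNAI1 at 2.49 CPM, and wild-type libraries 2 and 3 had SNAI1 at 0.726 and 0.518 CPM. How SNAI1 relates to these genes was not tested. SNAI2, which encodes Slug, rose by 0.49 with mutation 1 (adjusted p = 0.00612; 0.21 and 0.0739 against wild-type library 1 alone), fell by 0.94 with mutation 3 (adjusted p = 0.000151) and differed by -0.05 with mutation 2 (adjusted p = 0.808).

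TCF3, which encodes the E-box binders E12 and E47, rose by 0.29 with mutation 1 and fell by 0.16 with mutation 3 (adjusted p = 0.000754 and 0.0248). With mutation 2 it differed by -0.15 (adjusted p = 0.0558), by -0.16 without wild-type library 1 (adjusted p = 0.000124) and by -0.11 against it alone. ZEB1, another repressor of CDH1, fell by 0.73 with mutation 1 (adjusted p = 0.037), and differed by -0.63 and -0.41 with mutations 2 and 3 (adjusted p = 0.103 and 0.23). The sign for ZEB1 turned with the wild-type libraries, at -1.07, -0.96 and -0.74 without library 1 and 0.35, 0.46 and 0.68 against it alone. ZEB2, from the same repressor family, fell by 0.78 with mutation 1 (adjusted p = 0.0057), a difference of -0.19 against library 1 alone (adjusted p = 0.389), and differed by -0.06 and -0.17 with mutations 2 and 3 (adjusted p = 0.831 and 0.475). For mutations 2 and 3 the ZEB2 values were -0.28 and -0.40 without library 1 and 0.54 and 0.42 against it alone, all past the threshold in opposite directions. With wild-type library 1 left out, 7 of these genes were tested, and 4, 1 and 1 rose and 3, 5 and 5 fell with mutations 1, 2 and 3. Of all genes, 82.7%, 67.9% and 77.1% were then called. These list counts depend on the wild-type libraries used. Against library 1 alone, ZEB1 with every mutation and ZEB2 with mutations 2 and 3 turned from below to above wild type.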

How the data were processed

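Poly(A) RNA of MDA-MB-231 cells in 4 Dicer plasmid groups was sequenced in 12 libraries, 3 per group. For each library the authors deposited unnormalized gene counts of read pairs over 64252 Ensembl gene IDs. Per the file headers, the counts came from featureCounts 2.0.6 over exons of the hg38 Ensembl track, without strand and with a minimum mapping quality of 10. Reads from overlapping or antisense genes therefore cannot be told apart, and reads that fit near-identical copies can be lost. The tools cutadapt 1.9.1, STAR, SAMtools, FastQC 0.11.8 and DESeq2, are named in the submitters' processing notes.

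Genes were matched by symbol and placed with GENCODE v29. Counts as deposited were fitted with edgeR 4.0.16 (R 4.3.3): TMM scaling, filterByExpr (minimum count 10, minimum total 15), 1 robust quasi-likelihood fit over all 12 libraries with 8 residual degrees of freedom, and Benjamini-Hochberg adjustment over 15094 genes. The SE was approximated as the log2 fold change over the root of its F value. Scripts were tested on simulated counts.

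All 10 genes were named in every comparison. Named from each related list were up to 3 genes with the lowest adjusted p in the F test over 4 groups, plus CTNNB1, CTNND1, CTNNA1, EPCAM, ESRP1, GRHL2, SNAI1, SNAI2, ZEB1 and ZEB2, and for CDH1 the 3 genes nearest in profile. CDH2 was not among the genes tested, so no such genes were named for it. Some items the rule names are not reported here. The genes, lists and alternatives were chosen with earlier results of these data known. Alternatives were DESeq2 size factors in edgeR, DESeq2 1.42.0, no filter, fits of only the 2 groups compared, leaving out each library in turn, and, added after seeing the data, wild type by its library 1 alone. The labels give no batch.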

Additional observations from a re-analysis of the deposited data

How the results depend on the processing

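No paired analysis was possible because the mutant libraries carry no replicate numbers in the labels. The alternatives other than wild type by its library 1 alone gave 758 log2 fold changes of the 8 tested genes. Of these, 725 kept their direction and side of the threshold, 18 lost the call, 13 gained it and 2 changed sign. Many of the 758 left out a library of neither group compared, where the fold change could hardly move, so the 725 overstate stability. The 758 also include CDH3 with mutation 1, whose calls are no result. The sign changes were F11R with mutation 2 against wild type without wild-type library 1 (0.39, and between -0.25 and 0.39 over all libraries left out) and CDH3 with mutation 3 without wild-type library 3 (0.01, and between -0.88 and 0.01). Against wild-type library 1 alone, CDH1 with mutation 1 changed sign to -0.33. Fitting only the 2 groups gave 2589 genes called for mutation 2 against wild type, where the shared fit gave 5588, and 10073 for mutation 1 against mutation 3, where it gave 6454. Using library 1 alone gave 10571 for mutation 1 against mutation 3. Leaving out 1 library at a time gave between 4208 and 10726 genes for mutation 2 against wild type and between 5146 and 10521 for mutation 1 against mutation 3, the highest both without wild-type library 1. Of the 8 genes tested, between 2 and 5 were called for mutation 2, with 2 when its library 2 was left out. DESeq2 gave no adjusted p for CDH1 in any comparison, and with only 2 groups fitted CDH3 (mutations 2 and 3 against wild type and against each other) and CDH1 (mutation 3 against mutation 2) did not pass the filter. The cause of these changes was not tested. CDH2, OCLN and CDH3 are limited by low counts, with sums of 4 to 46 counts per group. So is CDH1 with mutations 2 and 3, with sums of 37 and 27 counts.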
